A study of Mus musculus with 16 samples.

Results

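The distal end of mouse chromosome 9 holds Cx3cr1, the gene of the fractalkine receptor, and in p38KO mice 1 copy of that locus drives the tamoxifen-inducible recombinase CreERT2. The genes described here are those listed on chromosome 9 with a start at 114000000 or beyond, to the end of the chromosome, and they were kept where at least 4 of the 16 libraries reached 1 CPM, the count of a gene scaled to the reads assigned in its library. Of 128 listed genes, 92 passed, among 13912 genes tested of 20267 listed in all. The 92 genes started between 5.68 Mb before and 4.41 Mb after the Cx3cr1 start site, and 73 of them were protein coding. The other 36 genes, 17 of them protein coding, had a group mean of at most 0.956 CPM, and 21 of them did not reach 1 CPM in any library.

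RNA was sequenced from microglia, the resident macrophages of the brain, sorted as CD11b+ and P2ry12+ cells. They came from the left brain hemisphere, without olfactory bulb, brainstem and cerebellum. The 16 mice were aged 11 months, with 4 mice in each of 4 groups on a C57BL/6J background. WT p38+/+ mice carried neither APPswe/PS1dE9 nor Cre, WT p38KO mice carried 1 copy of Cx3cr1-creERT2, AD p38+/+ mice carried 1 copy of the APPswe/PS1dE9 transgenes, and AD p38KO mice carried both. Every mouse, controls included, was p38 fl/fl, with loxP sites around exon 1 of Mapk14 (p38α), and every mouse ate tamoxifen chow (400 ppm) for 4 weeks from 5 months of age. The p38+/+ groups therefore differ from the p38KO groups by the Cre allele and by the loss of p38α together, and these cannot be told apart. CreERT2 under Cx3cr1 is active in other CX3CR1-expressing myeloid cells as well as in microglia. The 4 mice of a group were those of highest RNA integrity among 6 processed, 11 of the 16 libraries were labelled male and 5 female, and p-values measure the spread between mice. Where 4 values are given for a gene without naming the groups, the WT mice come first and the AD mice second, each with p38+/+ before p38KO.

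CX3CR1 is a G protein-coupled receptor that microglia express strongly and that binds fractalkine, a chemokine made largely by neurons. Further along the same chromosome arm lies a cluster of inflammatory chemokine receptor genes that includes Xcr1, Ccr1, Ccr3 and Ccr2, and the interval also holds receptors and adaptors such as Tgfbr2, which microglia need for their mature state, Myd88, the adaptor of Toll-like receptors, and Ctnnb1, the gene of β-catenin. DNA near a targeted locus is inherited together with it, and the question asked here was which genes of the interval, at which distance from Cx3cr1, differed between the mice with and without the Cre allele.

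The sequences around the start sites of Cx3cr1, Glb1 and Crtap are shown because the values below turn on Cx3cr1 itself and on the pair of neighbouring genes at the near edge of the interval. They are the RefSeq promoter windows of GRCm38.p6, 250 bases before the start to 50 after it, printed 5′ to 3′ on the strand of the gene. Cx3cr1 (minus strand) is at chr9:120068247-120068546, Glb1 (plus strand) at chr9:114400828-114401127 and Crtap (minus strand) at chr9:114390663-114390962. Capitals mark the E-box CACGTG, the core GAGGAA bound by PU.1 and related ETS factors, and the TATA element TATAAA, each searched on both strands.
Cx3cr1: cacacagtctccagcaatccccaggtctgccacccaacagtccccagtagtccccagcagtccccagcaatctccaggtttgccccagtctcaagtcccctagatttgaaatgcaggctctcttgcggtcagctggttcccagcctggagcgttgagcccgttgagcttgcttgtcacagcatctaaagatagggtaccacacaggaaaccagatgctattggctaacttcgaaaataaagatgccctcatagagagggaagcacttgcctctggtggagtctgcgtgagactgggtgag
Glb1: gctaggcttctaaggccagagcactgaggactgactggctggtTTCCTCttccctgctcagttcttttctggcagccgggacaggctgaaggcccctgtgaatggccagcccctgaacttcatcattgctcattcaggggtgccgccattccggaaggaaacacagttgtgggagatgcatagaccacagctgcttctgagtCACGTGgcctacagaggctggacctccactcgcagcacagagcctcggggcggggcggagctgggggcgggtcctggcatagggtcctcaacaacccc
Crtap: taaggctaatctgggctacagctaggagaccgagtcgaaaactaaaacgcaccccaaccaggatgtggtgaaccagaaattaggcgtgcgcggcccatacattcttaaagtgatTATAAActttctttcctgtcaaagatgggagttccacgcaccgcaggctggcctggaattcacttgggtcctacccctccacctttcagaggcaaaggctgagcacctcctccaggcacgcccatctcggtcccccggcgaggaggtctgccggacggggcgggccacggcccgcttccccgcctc
The Cx3cr1 window held none of the motifs, the Glb1 window held an E-box and a PU.1 core on the opposite strand, and the Crtap window held a TATAAA well before the start. Entries were found for 69 of the 92 genes (81 windows). The E-box was in 13.6% of these windows and in 7.15% of 32851 windows of all genes, the PU.1 core in 23.5% and 28.3%, and TATAAA in 6.17% and 13.6%. A match describes the letters of a window and not a bound site.

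Each library held an estimated 12.3 to 16.4 reads per CPM (median 13.9), so 3 reads correspond to 0.183 to 0.244 CPM, and this covers counting error only. The AD p38KO libraries had 15485 to 16852 genes above 0, fewer than the other 12 libraries (16987 to 18054). The Mapk14 transcript ENSMUST00000062694 separated the libraries as labelled, at 47.1 to 82.6 CPM (WT) and 58.5 to 71.0 CPM (AD) with intact p38 against 0.0589 to 0.214 CPM (WT) and 0.0574 to 0.248 CPM (AD) after the knockout, while the level of the whole gene overlapped, at 151.6 to 210.2 CPM and 138.1 to 168.6 CPM. Of the microglial markers, Csf1r was at 15556 to 20655 CPM, Tmem119 at 5022 to 7293 CPM and P2ry12 at 6639 to 10100 CPM over the 16 libraries. Markers of other cells summed to 0.271 to 3.68 CPM for neurons, 1.58 to 29.3 CPM for astrocytes, 2.06 to 14.6 CPM for oligodendrocytes, 16.8 to 45.5 CPM for endothelium, 7.71 to 75.6 CPM for border macrophages, 2.10 to 23.1 CPM for the listed monocyte genes and 0 to 0.977 CPM for the listed lymphocyte gene.

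Cx3cr1 was the most abundant gene of the interval per length, with a mean of 1710 CPM per kb of transcript, ahead of Lars2 (879 CPM per kb), which charges mitochondrial leucine tRNA, Cmtm6 (737 CPM per kb), a membrane protein that stabilises PD-L1, and Tgfbr2 (294 CPM per kb). By CPM, Cx3cr1 alone made up 38.4 to 45.7% of all reads of the interval in WT p38+/+ libraries and 32.3 to 39.3% in AD p38+/+ libraries. This share was 23.8 to 28.2% in WT p38KO and 21.4 to 25.9% in AD p38KO libraries, so that the p38KO and p38+/+ libraries did not overlap. The sum of the other 91 genes in WT mice was 11897 ± 744 CPM without the knockout and 10848 ± 651 CPM with it (mean ± SD, n = 4 each), and the ranges overlapped. In AD mice it was 11588 ± 166 CPM without and 10515 ± 501 CPM with the knockout. There the highest p38KO library (11198 CPM) was below the lowest p38+/+ library (11443 CPM). Abundant genes weigh most in such a sum. The median log2 fold change of these 91 genes with the knockout was -0.010 in WT mice and -0.003 in AD mice.

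**Figure D1:**
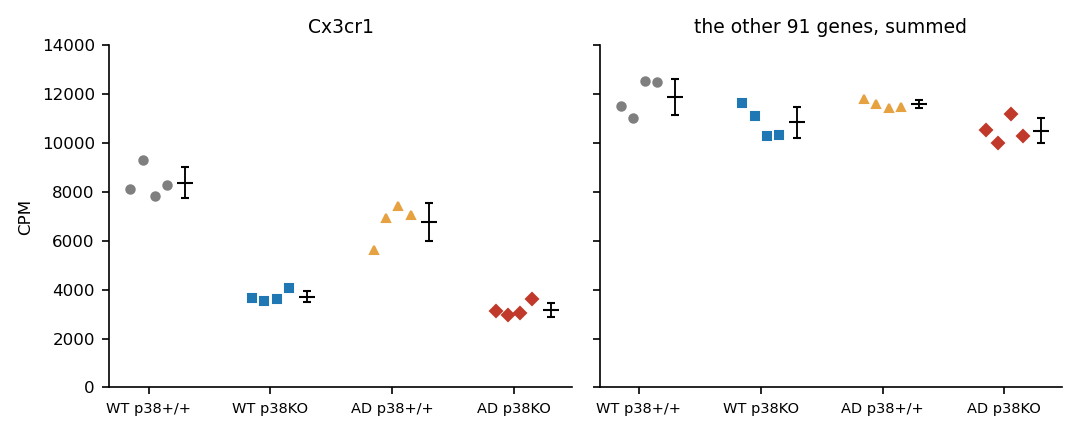
CPM of Cx3cr1 (left) and summed CPM of the other 91 genes of the interval (right) in each of 16 libraries by group. Points are libraries, dashes with bars are the mean ± SD of 4 mice. Cx3cr1 separates p38KO from p38+/+ libraries in both WT and AD mice. The summed levels of the other genes lie between 10027 and 12554 CPM. They overlap between p38KO and p38+/+ libraries in WT mice and do not overlap in AD mice.

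Along the interval the levels spread from under 1 CPM to 9296 CPM from one gene and library to the next. For 74 of the 92 genes (80.4%) the 95% interval of the knockout effect averaged over WT and AD mice lay within 1 of 0 on the log2 scale, against 82.0% of all genes tested.

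**Figure D2:**
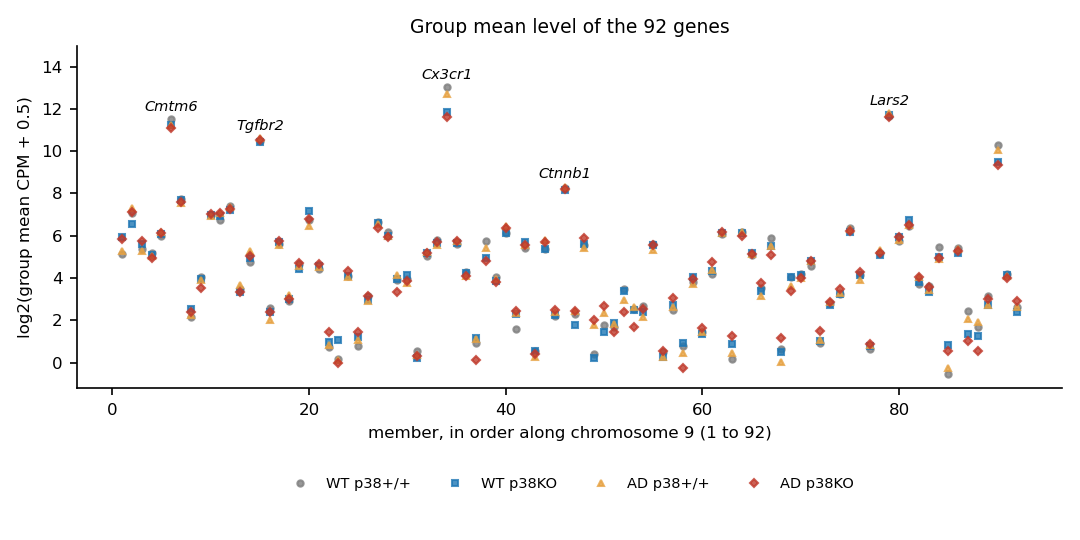
Mean level of each of the 92 genes in the 4 groups, as log2(CPM + 0.5), in order along chromosome 9. Group means of most genes overlie each other, and at Cx3cr1 the WT p38KO and AD p38KO means are below both p38+/+ means.

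The first comparison asked which genes of the interval differed with the knockout in mice without the transgene. The level of Cx3cr1 was 8130, 9296, 7842 and 8275 CPM in the WT mice without the knockout and 3650, 3553, 3618 and 4061 CPM in the WT p38KO libraries. Every p38KO library was below every p38+/+ library. On the log2(CPM + 0.5) scale, on which all fold changes are given, Cx3cr1 fell by 1.17 (SE 0.0928, 95% interval -1.37 to -0.98, limma adjusted p = 4.43e-06), a drop of 55.6%. In bulk RNA, fewer cells of a type and less RNA per cell cannot be told apart. Cx3cr1 was the single gene called, of 92 here and of 13912 in all, at a background of 0.00719% of genes tested. At an unadjusted p under 0.05, 8 of the 92 genes (8.70%) were past the threshold, against 3.53% of all genes. The median of the 92 log2 fold changes was -0.014, against 0.016 over all genes, with 47 of the 92 (51.1%) below 0, against 47% of all genes.

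In AD mice the same gene was again the one called. Cx3cr1 was at 5639, 6943, 7429 and 7044 CPM in the AD mice without the knockout and at 3126, 2978, 3042 and 3609 CPM in the AD p38KO libraries. The groups did not overlap. The fall was 1.08 on the log2 scale (SE 0.0928, 95% interval -1.28 to -0.89, limma adjusted p = 1.56e-05), or 52.7%. Of all genes, 7 were called, a background of 0.0503%. The interaction, which is the AD knockout effect minus the WT knockout effect, was 0.09 for Cx3cr1 (SE 0.131, 95% interval -0.19 to 0.37, limma adjusted p = 1). No gene of the interval was called for the interaction, at a background of 0.0%, and at an unadjusted p under 0.05 from limma it was 0 of 92 here and 546 of 13912 genes (3.92%). The median of the 92 knockout effects in AD mice was -0.007, against -0.023 over all genes, and 9 genes had an unadjusted p under 0.05 (9.78%, against 6.99% of all genes).

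**Figure D3:**
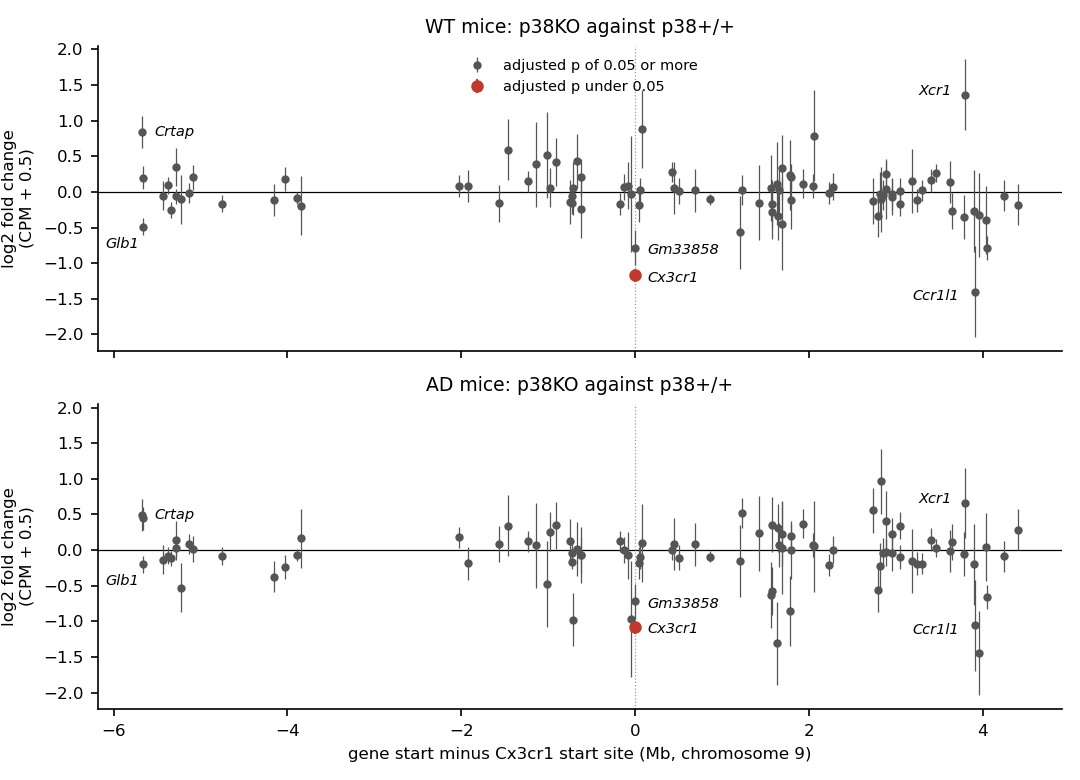
Log2 fold change of p38KO against p38+/+ on log2(CPM + 0.5) in WT mice (top) and AD mice (bottom) for the 92 genes, by distance of the gene's start from the Cx3cr1 start site in Mb. Bars are standard errors, and the red point, Cx3cr1 at -1.17 and -1.08, is the gene with a limma adjusted p under 0.05. The other genes lie on both sides of 0 in both panels, with Gm33858, next to Cx3cr1, at -0.78 and -0.72.

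The knockout main effect averages the 2 knockout comparisons over 8 p38KO and 8 p38+/+ mice. Of the 92 genes 2 were called, both lower, at a background of 0.0791% called (11 genes of 13912) and 0.0719% called lower. Cx3cr1 fell by 1.13 (SE 0.0656, limma adjusted p = 3.0e-08). At an unadjusted p under 0.05 it was 10 of the 92 genes (10.9%), against 5.9% of all genes. The libraries of the 2 genotypes did not overlap, in the same direction in WT and in AD mice, for 2 of the 92 genes (2.17%), Cx3cr1 included, as for 0.101% of all genes. Over all 16 libraries, Cx3cr1 was the 1 member without overlap between 8 p38KO and 8 p38+/+ libraries, against 0.0575% of all genes. The median over the 92 genes was -0.015, over the other 679 genes tested on chromosome 9 it was -0.017, and over all genes it was -0.008, with 49 of the 92 (53.3%) and 51.6% of all genes below 0.

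Among the chemokine receptor genes beyond Cx3cr1, Ccr1, Ccr2, Ccr1l1, Ccr3 and Xcr1 were not called in the knockout main effect. Ccr1, a receptor of inflammatory chemokines such as CCL3, averaged 42.8 ± 26.1, 35.7 ± 19.5, 40.5 ± 16.8 and 38.9 ± 25.2 CPM (SD, n = 4). Ccr2, the receptor of CCL2 on inflammatory monocytes, averaged 8.27 ± 4.54, 6.15 ± 3.62, 6.17 ± 1.40 and 7.45 ± 4.63 CPM in the same order, and its groups overlapped widely.

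Ccr1l1, a chemokine receptor paralogue of Ccr1, was at 3.70 to 5.92 CPM in WT p38+/+ libraries and at 0.215 to 3.66 CPM in WT p38KO libraries, without overlap. In AD mice its libraries ran from 0.758 to 6.02 CPM without the knockout and from 0 to 2.63 CPM with it, and they overlapped. Its main effect was -1.23 (SE 0.449, limma adjusted p = 0.747). Reads of Ccr1l1 and Ccr1 may have been split between these similar genes in the counting. Ccr3, the eotaxin receptor, averaged 2.71, 1.88, 3.22 and 0.959 CPM in the 4 groups in the order above, with a main effect of -0.88 (SE 0.418, limma adjusted p = 0.834).

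Xcr1, the receptor of XCL1 that marks cross-presenting dendritic cells, passed the filter on low values in 4 libraries, and all 4 were p38KO libraries. It was listed at 0, 0.122, 0.607 and 0 CPM in WT p38+/+, at 0.407, 2.24, 1.44 and 1.07 CPM in WT p38KO, at 0.401, 0.138, 0.704 and 0.0709 CPM in AD p38+/+ and at 2.03, 0.875, 0.932 and 0 CPM in AD p38KO libraries. Many of these values are near or under the level of 3 reads. The main effect was 1.01 (SE 0.35, limma adjusted p = 0.683), and a gene that passes through 1 genotype alone has to differ in this direction. Ccr8, Ackr2, Ccr9 and Cxcr6 were not tested.

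Gm33858 is an antisense gene on the plus strand (chr9:120068996-120070622) that starts 713 bases upstream of the Cx3cr1 start site and is read away from it. Its level was 63.7, 57.4, 54.2 and 39.9 CPM in WT p38+/+ and 29.6, 29.5, 31.1 and 32.4 CPM in WT p38KO libraries. The AD libraries were at 35.6, 45.6, 39.3 and 48.3 CPM without the knockout and 13.7, 23.0, 31.9 and 40.2 CPM with it. The WT groups did not overlap and the AD groups did, through the p38KO library at 40.2 CPM. The main effect was -0.75 (SE 0.171, limma adjusted p = 0.228), which did not pass the threshold over all genes. Without that library it was -0.86 (limma adjusted p = 0.0308). Of the 16 runs with 1 library left out, Gm33858 was called in this 1 only, and the limma adjusted p ran up to 0.488. With all 16 libraries and array weights, Gm33858 was also called (-0.77, limma adjusted p = 0.0238). The gene shares 78 exon bases, on the opposite strand, with the longest Cx3cr1 transcript (ENSMUST00000215016) and 0 with the main one, and since no source used here states whether counting used strand, reads of the shared bases cannot be assigned to either gene.

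Of the 6 genes on either side of Cx3cr1, none passed the adjusted threshold for the knockout main effect. The annotated Cx3cr1 gene spans chr9:119901616-120069879, and Gorasp1, Csrnp1 and Xirp1 lie inside that span, with Wdr48 at its far end. That span rests on a last exon of 12 bases in ENSMUST00000177637, since the other transcripts end at 120048683. Wdr48, a cofactor of deubiquitinating enzymes, averaged 55.7 ± 8.27 CPM, 49.9 ± 10.2 CPM, 46.8 ± 5.74 CPM and 50.9 ± 3.48 CPM (SD, n = 4). Gorasp1, a Golgi stacking protein, averaged 48.9 ± 11.4, 50.4 ± 4.86, 53.0 ± 7.54 and 53.4 ± 11.1 CPM in the same order. Csrnp1, a nuclear protein induced by AXIN1, averaged 19.2 ± 8.94, 18.6 ± 3.48, 16.5 ± 1.70 and 16.4 ± 6.28 CPM. Their main effects were -0.02 (SE 0.107), 0.03 (SE 0.128) and 0.01 (SE 0.233), and each of these changed sign with some libraries left out.

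On the other side, Slc25a38, a mitochondrial glycine carrier, averaged 16.3 ± 4.01, 14.0 ± 2.18, 15.1 ± 2.76 and 13.3 ± 3.06 CPM, with a main effect of -0.19 (SE 0.161, limma adjusted p = 0.901). Rpsa, a protein of the small ribosomal subunit, averaged 70.1 ± 16.7, 69.8 ± 6.63, 87.8 ± 14.6 and 82.1 ± 11.2 CPM, with a main effect of -0.04 (SE 0.118). Before Cx3cr1, the mitochondrial nuclease gene Exog, the activin receptor gene Acvr2b and the peroxisomal thiolase gene Acaa1a had main effects of 0.07 (SE 0.182), 0.23 (SE 0.27) and -0.10 (SE 0.108). The values of Rpsa and Exog changed sign with some libraries left out. Xylb, a xylulokinase gene, was at 12.6 to 15.9 CPM in WT p38+/+ and 11.3 to 21.4 CPM in WT p38KO libraries, and at 2.48, 10.7, 12.3 and 12.9 CPM in AD p38KO against 12.6 to 20.9 CPM in AD p38+/+ libraries, a log2 fold change of -0.98 in AD mice (SE 0.371, limma adjusted p = 0.661). Without AD p38KO 1, the library at 2.48 CPM, it was -0.46 (limma adjusted p = 0.645). The low RNAs among the neighbours, Xirp1 and the lincRNA 4930516B21Rik, averaged at most 1.70 and 0.948 CPM in any group.

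By distance, the 22 genes that started within 1 Mb of the Cx3cr1 start site, Cx3cr1 left out, had a median knockout main effect of -0.014, with values from -0.75 to 0.50, 12 below 0 and 1 (Gm33858) at an unadjusted p under 0.05. The 69 genes further away had a median of -0.014, with values from -1.23 to 1.01, 36 below 0 and 8 at an unadjusted p under 0.05. Over all genes tested, 5.9% had an unadjusted p under 0.05 by limma for this effect. Those 8 included Crtap, Glb1 and Tmppe, which adjoin each other, and Xcr1, which passed the filter through p38KO libraries alone. In windows of 1 Mb from the start of the interval, which held 0 to 15 of the genes, the median main effect ran from -0.18 to 0.13. Across the 91 genes, the size of the main effect and the distance from Cx3cr1 had a Spearman rho of 0.064, while distance and standard error had a rho of -0.23. Neighbouring genes share libraries, and these values are descriptions across genes.

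At the near edge of the interval, 5.68 Mb from Cx3cr1, neighbouring genes differed in opposite directions without passing the adjusted threshold. Crtap, which encodes cartilage-associated protein, a partner of the collagen prolyl 3-hydroxylase, was at 43.8, 26.5, 33.7 and 34.1 CPM in WT p38+/+ and 61.0, 67.1, 61.4 and 56.5 CPM in WT p38KO libraries. Among AD mice Crtap was at 40.5, 37.0, 39.6 and 34.4 CPM without the knockout and at 29.4, 62.9, 55.1 and 79.5 CPM with it. The WT groups did not overlap, and in AD mice the single p38KO library at 29.4 CPM lay below all p38+/+ libraries. The main effect was 0.67 (SE 0.158, limma adjusted p = 0.272). Without that library it was 0.81 (limma adjusted p = 0.00721). Of the 16 runs with 1 library left out, Crtap was called in this 1 only, and the limma adjusted p ran up to 0.567. With all 16 libraries and array weights, Crtap was also called (0.66, limma adjusted p = 0.0336). The same held without AD p38KO 1 and 4 together (0.74, limma adjusted p = 0.0152). AD p38KO 1, at 29.4 CPM, and AD p38KO 4, at 79.5 CPM, had the fewest genes above 0 of all libraries (16042 and 15485). The part of this in the result was not tested.

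Glb1, the lysosomal β-galactosidase, starts 10401 bases beyond the Crtap start on the plus strand (chr9:114401076-114474898). It was at 105.8, 138, 143 and 143 CPM in WT p38+/+ and 110, 87.4, 96.98 and 82.5 CPM in WT p38KO libraries. In AD mice it was at 167, 160, 145 and 156 CPM without the knockout and at 160, 123, 128 and 138 CPM with it. The groups overlapped in both backgrounds, through a low WT p38+/+ library and a high AD p38KO library. The knockout main effect was -0.34 (SE 0.0867, limma adjusted p = 0.365). Tmppe, a transmembrane protein with a metallophosphoesterase domain, starts 29 bases after Glb1 on the same strand and shares 165 exon bases with it, so its reads may overlap those of Glb1. It averaged 41.6 ± 5.01, 47.7 ± 3.84, 37.98 ± 3.63 and 52.9 ± 12.9 CPM (SD, n = 4), with a main effect of 0.32 (SE 0.112, limma adjusted p = 0.683).

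**Figure D4:**
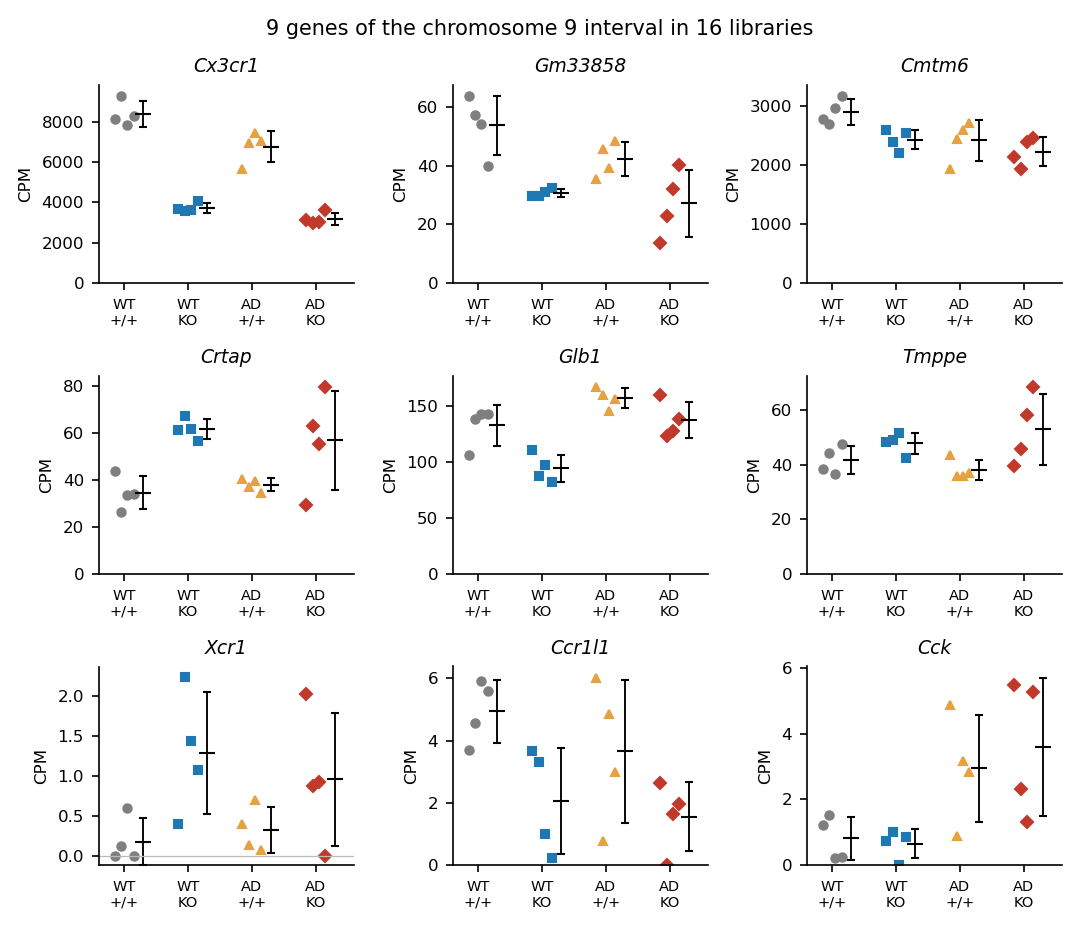
CPM of 9 genes of the interval in each library by group (+/+ stands for p38+/+ and KO for p38KO). Points are libraries, dashes with bars are the mean ± SD of 4 mice. Cx3cr1 is lower in p38KO libraries of both backgrounds, Crtap is higher in all WT p38KO libraries and in 3 of 4 AD p38KO libraries, and Cck is higher in most AD libraries.

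The other genes of the interval were counted in 4 lists by function. For these lists, and for those outside the interval below, the shares over all genes tested were 0.0791% called and 5.9% at an unadjusted p under 0.05 by limma. Of 16 tested signalling receptors, adaptors and kinases, 0 were called for the knockout main effect, with 9 above and 7 below 0, 0 at an unadjusted p under 0.05 by limma, and a median of 0.025. Tgfbr2 averaged 1446 ± 78.2, 1368 ± 102, 1573 ± 168 and 1501 ± 60.1 CPM, Myd88 averaged 98.9 ± 5.61, 95.3 ± 4.33, 93.2 ± 8.05 and 82.7 ± 4.90 CPM, and Ctnnb1 averaged 305.6 ± 11.7, 284.9 ± 15.3, 319.4 ± 17.2 and 299.95 ± 14.1 CPM. Itga9, an integrin subunit, spread from 31.7 to 168 CPM over the libraries and overlapped in every group. Of 16 tested genes of membrane traffic and cytoskeleton 0 were called (7 above and 9 below 0, median -0.027, 1 at an unadjusted p under 0.05 by limma). That gene was Cmtm6, at 2895 ± 214, 2429 ± 168, 2415 ± 344 and 2225 ± 241 CPM and with a main effect of -0.18 (SE 0.0747, limma adjusted p = 0.788).

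Of 11 tested genes of metabolism, lysosome and glycosylation 0 were called for the knockout main effect (5 above and 6 below 0, median -0.050, and 3 at an unadjusted p under 0.05 by limma, which were Crtap, Glb1 and Tmppe). Stt3b, a catalytic subunit of the oligosaccharyltransferase, averaged 166.7 ± 24.0, 147.9 ± 9.32, 161.8 ± 22.1 and 153.2 ± 20.54 CPM. Of 12 tested genes of RNA, translation and DNA that lie in the interval 0 were called (4 above and 8 below 0, median -0.028, and 0 at an unadjusted p under 0.05 by limma). Eif1b, a translation initiation factor, was at 41.4 to 45.6 CPM in WT p38+/+ and 50.4 to 53.7 CPM in WT p38KO libraries without overlap, and its AD groups overlapped, with means of 46.4 and 46.9 CPM. Exosc7, a subunit of the RNA exosome, was at 13.6 to 14.8 CPM in AD p38+/+ and 15.5 to 27.8 CPM in AD p38KO libraries without overlap, and its WT means were 16.9 and 17.1 CPM. Without overlap between genotypes there were 7 of the 92 genes in WT mice (7.61%, against 2.72% of all genes) and 3 in AD mice (3.26%, against 3.34% of all genes).

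The partners of CX3CR1 outside the interval were measured for comparison. Its ligand gene Cx3cl1 was at 0.71 to 0.92 CPM on average in the 4 groups. Of 17 tested genes of fractalkine signalling on any chromosome, among them the sheddases Adam10 and Adam17, the inhibitory G protein subunits Gnai2 and Gnai3, and Rgs10, 0 were called for the knockout main effect (9 above and 8 below 0, median 0.007, and 1, the G protein subunit gene Gnb2, at an unadjusted p under 0.05 by limma). Of 13 chemokine receptors outside the interval, 4 were tested and 0 were called (1 above and 3 below 0, median -0.058, and 0 at an unadjusted p under 0.05 by limma). Ccr6, the most abundant of them, averaged 403.6, 347.8, 308.7 and 334.9 CPM.

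At the level of transcripts, 209 of the interval were tested among 34322. For the knockout main effect 5 were called, 4 lower and 1 higher, at a background of 0.166%, and 3 of those that were lower belonged to Cx3cr1. Cx3cr1 has 3 listed transcripts of equal coding length (1062 bases). ENSMUST00000215016 has a first exon of its own (78 bases), and ENSMUST00000177637 and ENSMUST00000064165 share 3144 exon bases. The main one, ENSMUST00000177637, held 89.4 ± 1.65%, 87.1 ± 0.405%, 88.4 ± 0.234% and 85.6 ± 1.74% of the gene's reads. It fell by 1.17 (SE 0.0579, limma adjusted p = 2.18e-09). The other two, ENSMUST00000064165 and ENSMUST00000215016, fell by 0.85 (SE 0.109, limma adjusted p = 0.00183) and 0.77 (SE 0.124, limma adjusted p = 0.0177, or 0.0503 without AD p38+/+ 3). ENSMUST00000064165 went from 751.6 to 403.3 CPM in WT mice and from 669.8 to 384.4 CPM in AD mice, and ENSMUST00000215016 from 141.6 to 76.3 CPM and from 119.1 to 75.5 CPM.

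Just outside the interval, at -6.26 Mb from the Cx3cr1 start site, the Clasp2 transcript ENSMUST00000166734 averaged 17.4 and 21.4 CPM in WT and AD p38+/+ and 0.95 and 1.45 CPM in WT and AD p38KO libraries, a main effect of -3.49 (SE 0.287, limma adjusted p = 6.18e-06). The Clasp2 gene as a whole, which encodes a microtubule-binding protein, averaged 220.4, 260.3, 188.5 and 265.9 CPM, with a main effect of 0.36 (SE 0.098, limma adjusted p = 0.458). Its main transcript, ENSMUST00000111838, rose by 0.60 (SE 0.109, limma adjusted p = 0.0297) and held 69.4%, 81.0%, 65.3% and 77.8% of the gene's reads. All but 3 of the 4108 exon bases of ENSMUST00000166734 lie within the exons of ENSMUST00000111838, so the split of reads between them rests on the assignment. ENSMUST00000214522, ENSMUST00000215022 and ENSMUST00000163895 also held smaller shares with the knockout. These were 0.47%, 0.78% and 0.22% in WT p38+/+ and 0.034%, 0.043% and 0.020% in WT p38KO mice. In AD mice they were 0.69%, 1.11% and 0.46% without and 0.042%, 0.071% and 0.021% with the knockout. The shares of the other Clasp2 transcripts moved by smaller factors.

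**Figure D5:**
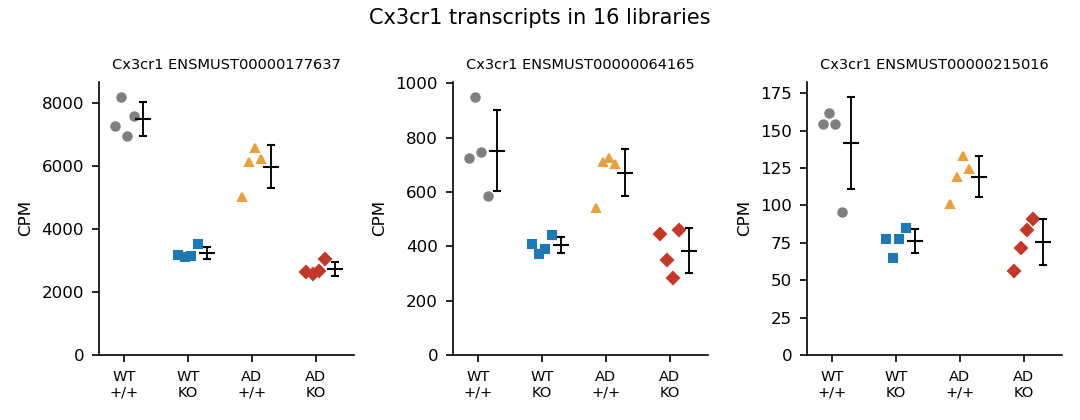
CPM of 3 Cx3cr1 transcripts in each library by group (WT +/+, WT KO, AD +/+ and AD KO as p38 genotypes). Points are libraries, dashes with bars are the mean ± SD of 4 mice. All 3 are lower in p38KO than in p38+/+ libraries as group means, in WT and in AD mice.

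The APP/PS1 comparisons set AD against WT mice of the same p38 genotype, so that the mice compared either both carried the Cre allele or both lacked it. In p38+/+ mice 50 genes were called in AD against WT (0.359% of all genes) and 0 of the 92, of which 5 had an unadjusted p under 0.05 from limma (5.43%, against 7.11% of all genes). In p38KO mice 45 were called (0.323%) and 0 of the 92, of which 10 had an unadjusted p under 0.05 from limma (10.9%, against 9.56% of all genes). For the APP/PS1 main effect 143 genes were called (1.03%), and 2 of the 92, Glb1 and Cck, both higher (0.927% of all genes were called higher). At an unadjusted p under 0.05 it was 13 of the 92 (14.1%), against 12% of all genes. The median main effect of the 92 genes was -0.023, against -0.030 over all genes.

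Glb1 was higher in AD mice by 0.40 (SE 0.0867, 95% interval 0.21 to 0.58, limma adjusted p = 0.029), with a difference of 0.25 in p38+/+ mice (limma adjusted p = 0.717) and 0.54 in p38KO mice (limma adjusted p = 0.0765). The call was lost without WT p38+/+ 1, without WT p38KO 2, 3 or 4, without AD p38+/+ 1, 2 or 4, or without AD p38KO 1 (limma adjusted p up to 0.0818), and also without AD p38KO 1 and 4 together (limma adjusted p = 0.141). Cck, the gene of the peptide cholecystokinin, was at 1.23, 1.52, 0.228 and 0.257 CPM in WT p38+/+ and at 0.732, 1.01, 0 and 0.860 CPM in WT p38KO libraries. The AD libraries were at 4.88, 0.896, 3.17 and 2.84 CPM without and at 5.49, 2.31, 1.32 and 5.28 CPM with the knockout. The other 6 AD libraries were above every WT library, with the AD p38+/+ library at 0.896 CPM and the AD p38KO library at 1.32 CPM inside the WT range. The main effect was 1.59 (SE 0.374, limma adjusted p = 0.0495), just past the threshold, and the call held when WT p38+/+ 2, AD p38+/+ 2 or AD p38KO 3 was left out and was lost without any 1 of the other 13 libraries (limma adjusted p up to 0.138). It was also lost with a pseudocount of 0.1 CPM or none (limma adjusted p = 0.0911 and 0.384), without the filter (0.0745), with array weights (0.0591), with the S0 label as a covariate (0.0600) and without AD p38KO 1 and 4 together (0.201). Over the libraries, the summed neuronal markers were at 0.725 to 2.70 and 0.569 to 3.37 CPM in WT p38+/+ and WT p38KO and at 0.345 to 1.90 and 0.271 to 3.68 CPM in AD p38+/+ and AD p38KO mice, and their part in the level of Cck was not tested.

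Cx3cr1 averaged 8386 ± 633, 3720 ± 231, 6764 ± 778 and 3189 ± 287 CPM (SD, n = 4). Its APP/PS1 main effect was -0.27 (SE 0.0656, 95% interval -0.41 to -0.13, limma adjusted p = 0.0593), a drop of 17.0% that did not pass the threshold, while its transcript ENSMUST00000177637 fell by 0.29 (SE 0.0579, limma adjusted p = 0.0298), the 1 transcript of the interval called, against 0.379% of all transcripts. The call of the transcript was lost without WT p38+/+ 2 or 4, WT p38KO 1, 3 or 4, AD p38+/+ 2 or AD p38KO 1, 2 or 3 (limma adjusted p up to 0.0844), and with median-ratio scaling, quantile normalization or no pseudocount (limma adjusted p = 0.138, 0.144 and 0.0995). For the Cx3cr1 gene, the APP/PS1 difference was -0.31 in p38+/+ mice (limma adjusted p = 0.29) and -0.22 in p38KO mice (limma adjusted p = 0.449). The main effect of the gene passed with a filter of 5 CPM, array weights or sex as a covariate, and without AD p38KO 4 (limma adjusted p = 0.047, 0.0473, 0.0234 and 0.0297), and over all alternatives the limma adjusted p ran from 0.0234 to 0.185. Lyzl4, a lysozyme-like protein, averaged 2.91, 2.21, 4.54 and 5.81 CPM, with a main effect of 0.83 (SE 0.272, limma adjusted p = 0.202). Vipr1, a receptor of vasoactive intestinal peptide, averaged 10.6, 9.91, 7.36 and 4.76 CPM, with a main effect of -0.68 (SE 0.237, limma adjusted p = 0.24). Rpl14, a protein of the large ribosomal subunit, averaged 41.4, 40.8, 56.1 and 51.9 CPM, with a main effect of 0.40 (SE 0.127, limma adjusted p = 0.189).

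The genes next to the limits of the interval and of the filter had these values. Inside the position limit were Crtap and Glb1, described above. Outside it were Fbxl2, at 0.76, 0.46, 0.84 and 0.58 CPM, and Ubp1, at 32.0, 28.4, 34.2 and 30.5 CPM. Just inside the level filter, with 4 libraries at 1 CPM, were Xcr1, 4930516B21Rik and Vill, with means over 16 libraries of 0.69, 0.79 and 0.83 CPM. Just outside it were D830035M03Rik, Slc6a20b and Gm34655, with 0.51, 0.54 and 0.65 CPM. The last gene of the interval, Ppp2r3d, averaged 5.66, 4.76, 5.78 and 7.06 CPM in the 4 groups.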

How the data were processed

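RNA from sorted microglia of 16 mice, 4 per group as given by the labels, had been aligned with STAR to mm10 and quantified in Partek 10.0.22.0828 by the authors, who deposited CPM values per gene and per transcript, with an offset of 0.0001 CPM added. Strand use in counting is not given in the sources used here. Raw counts were not recovered (73.6 to 80.2% of low values lay within 0.05 of a whole number of reads), so no count model was run. The log2(CPM + 0.5) values of all 13912 genes with at least 1 CPM in 4 libraries were fitted in 1 linear model of the 4 groups with limma 3.58.1 (R 4.3.3), and two-sided p-values were adjusted over all of them by Benjamini-Hochberg. Transcripts were fitted likewise. The scripts were tested on simulated data. Other pseudocounts, filters, scalings, array weights, covariates and interval starts and the removal of each library were tried.

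The members and lists were chosen with earlier results of these data known. Genes were selected by rule: Cx3cr1, called members, 6 neighbours on each side, the 12 most abundant, the 6 of smallest p per comparison, both ends, genes at the limits, and up to 4 per list. Of these, Rps27rt, Sec22c, Gm47111 and A530083I20Rik are not described above. Their knockout main effects were 0.11, -0.60, -0.30 and 0.43, none called (limma adjusted p = 0.928, 0.868, 0.928 and 0.877). In AD mice, Sec22c had an unadjusted p under 0.05 by limma for the knockout. 1 gene of the interval and its transcripts stayed in the fits and counts and are not reported here. Itga9, Ccr1, Ccr2, Ccr3, Cx3cl1, Ccr6 and Gnb2 are given for their lists. Annotation was GENCODE M21, which held 126 of the 128 listed genes by identifier. Sequences are from RefSeq (GRCm38.p6). Summaries and plots used Python 3.11.15, pandas 2.3.3 and matplotlib 3.10.9.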

Additional observations from a re-analysis of the deposited data

Results flagged for a closer look

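Of the 168 groups of 4 libraries examined for 42 named genes, 20 held a library that lay far from the other 3 (a gap past Dixon's critical value), spread over 11 libraries. Chance marks about 1 in 20 groups. Near the edge of the interval, Glb1 was at 105.8 CPM in WT p38+/+ 1 (others 138 to 143 CPM) and Tmppe at 43.4 CPM in AD p38+/+ 1 (others 35.8 to 36.8 CPM). Of the signalling genes, Tgfbr2 was at 1521 CPM in WT p38KO 3 (others 1308 to 1326 CPM), Myd88 at 81.3 CPM in AD p38+/+ 1 (others 95.8 to 98.7 CPM), and Ctnnb1 at 323 CPM in WT p38+/+ 2 (others 299 to 301 CPM) and 308 CPM in WT p38KO 4 (others 277 to 278 CPM).

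Among the neighbours of Cx3cr1, Acaa1a was at 87.4 CPM in WT p38+/+ 2 (others 64.4 to 65.7 CPM) and 50.1 CPM in WT p38KO 2 (others 66.5 to 69.0 CPM). 4930516B21Rik was at 1.95 CPM in WT p38+/+ 2 (others 0.514 to 0.725 CPM), and Exog at 48.1 CPM in WT p38+/+ 1 (others 25.1 to 28.7 CPM). Xirp1 was listed at 0 CPM in WT p38+/+ 4 (others 1.81 to 1.95 CPM) and at 2.39 CPM in AD p38KO 2, where the others were listed at 0. Slc25a38 was at 10.97 CPM in AD p38+/+ 1 (others 16.1 to 16.9 CPM) and Rpsa at 65.3 CPM in AD p38KO 4 (others 87.2 to 88.4 CPM).

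Further along, Eif1b was at 45.6 CPM in WT p38+/+ 1 (others 41.4 to 41.6 CPM). Trak1, a mitochondrial transport adaptor, was at 65.1 CPM and Zfp445, a zinc finger gene, at 91.1 CPM in WT p38+/+ 2 (others 40.3 to 42.8 CPM and 47.7 to 49.9 CPM). Exosc7 was at 13.6 CPM in AD p38+/+ 3 (others 14.6 to 14.75 CPM) and at 27.8 CPM in AD p38KO 1 (others 15.5 to 16.7 CPM). Sacm1l, a phosphoinositide phosphatase, was at 109.2 CPM in AD p38KO 2 (others 85.1 to 87.1 CPM).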

How the results depend on the processing

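The call of Cx3cr1 (1 gene) in WT mice and in AD mice held in every alternative run, and the counts of 0 for AD against WT in p38+/+ mice and for the interaction did not move. The knockout main effect called 2 genes, 1 with no pseudocount beyond the file's own, and 1 to 3 with a library left out. It called 4 with array weights, where Crtap and Gm33858 were gained. AD against WT in p38KO mice called 0, or 0 to 1 with a library left out. The APP/PS1 main effect called 2 (Glb1 and Cck). It called 1 with a pseudocount of 0.1 CPM, with none, without the filter or with the S0 label, where Cck was lost, 1 with the replicate block or with the block and sex, where Glb1 was lost (limma adjusted p = 0.0664 and 0.109), and 1 from an interval start 3 Mb higher, which leaves Glb1 outside. It called 3 with sex, where Cx3cr1 was gained, and 2 with array weights, where Cx3cr1 was gained and Cck lost, or with a filter of 5 CPM, where Cx3cr1 was gained and Cck was not fitted. It called 0 without AD p38KO 1 and 4 together, and 0 to 2 with a library left out. For transcripts the knockout main effect called 5, 3 with no pseudocount, 4 with the replicate block, 3 with the block and sex, 9 from a start 3 Mb lower, and 3 to 6 with a library left out. The cause of these moves was not tested.

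Whether replicate numbers paired the mice was not settled. Over 24 same-number pairs r ran from -0.131 to 0.184 (median -0.0107, 2 over 0.1), against a median of -0.00221 for other numbers. At the gene level 9 of 16 libraries correlated best with their own number, and at the transcript level 6 of 16. The count expected by chance was not computed. Labelled sex differed between the replicate numbers, and its part in these correlations was not tested.

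Small knockout main effects changed sign. Wdr48 became 0.039 with array weights and 0.020 with block and sex, Lyzl4 -0.040 with sex, and without AD p38KO 1 and 4 Gorasp1 became -0.092, Rpsa 0.020 and Ppp2r3d -0.013. Cck became -0.050 (0.1 CPM), -1.198 (no pseudocount), -0.015 (quantile normalization), -0.066 (sex), -0.085 (block and sex) and -0.30 (without AD p38KO 1 and 4). The Cx3cr1 interaction became -0.027 with array weights. With a library left out, ranges were -0.050 to 0.015 (Cmtm7), -0.024 to 0.087 (Gpd1l), -0.11 to 0.020 (Gm9385), -0.019 to 0.19 (Exog), -0.085 to 0.027 (Wdr48), -0.052 to 0.082 (Gorasp1), -0.19 to 0.13 (Csrnp1), -0.11 to 0.023 (Rpsa), -0.14 to 0.0091 (Rpl14), -0.15 to 0.22 (Cck), -0.067 to 0.19 (Lyzl4) and -0.079 to 0.12 (Ppp2r3d). Levels under 0.244 CPM are within 3 reads.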
